A study of Mus musculus with 21 samples.

Results

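Gene expression in intestinal Lgr5 cells was compared between mice labelled as Vdr knockouts on a control diet and mice with an intact receptor on the NWD1 diet. The comparison uses 6 of the 21 libraries of the series, chosen by their labels, and every gene of the count table other than the ERCC spike-ins. AIN_VdrKO stands for 3 Lgr5EGFPcre-ERT2/VdrKO mice fed AIN76A, a purified control diet, all male. NWD1 stands for 3 Lgr5EGFPcre-ERT2 mice fed the purified NWD1 diet, 2 male and 1 female. A further group, AIN, holds 3 Lgr5EGFPcre-ERT2 mice fed AIN76A, 1 male and 2 female, and gives the level with intact receptor on the diet of the knockouts. All mice carried the Lgr5EGFPcre-ERT2 strain, received their diet from weaning and were 3 months old. The sources used here do not give the makeup of NWD1, the deleted part of Vdr or the tissue of the deletion. AIN_VdrKO and NWD1 differ in genotype and in diet, so genotype and diet cannot be told apart in a difference between them.

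Lgr5 is a surface receptor of the stem cells that renew the epithelium from the bottom of each crypt. Vdr encodes the vitamin D receptor, a nuclear receptor that binds the active form of vitamin D, pairs with a retinoid X receptor and acts on transcription from DNA elements near its target genes. In the intestine its best known targets serve calcium uptake: the apical calcium channel TRPV6 and the cytosolic calcium carrier calbindin-D9k, the product of S100g. CYP24A1, which degrades active vitamin D, is a classic target in many tissues.

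The brightest Lgr5-EGFP cells were sorted in bulk, and each library is a separate mouse sample by its label. Counts on genes ranged from 22562419 to 115435120 in AIN_VdrKO and from 30400725 to 53366708 in NWD1. The share of mitochondrial ribosomal RNA stood apart between the groups and that of spike-ins overlapped. Of gene counts, 1.379% to 2.804% in AIN_VdrKO and 0.3117% to 0.9648% in NWD1 were mitochondrial ribosomal RNA, and ERCC spike-ins took 1.59% to 5.74% of all counts in AIN_VdrKO, against 24.7%, 20.4% and 5.24% in NWD1 1, 2 and 3. The first principal component, with 39% of the variance, put the AIN_VdrKO libraries at -23.5 to 44.4 and the NWD1 libraries at -118 to -49.7. It separated the libraries of AIN and NWD2 from those of AINlowVitD, NWD1Ca and NWD1VitD, and these are called the first and second library set here. By their labels, AINlowVitD is the AIN diet with low vitamin D, and NWD1Ca and NWD1VitD are NWD1 with added calcium or vitamin D. NWD2 is a further diet group. The NWD1Ca mice were all female, and the other groups of these sets held both sexes. A contrast of the second set minus the first, which holds no AIN_VdrKO or NWD1 library, called 9385 of 16050 genes (58.5%), and diets differ between the sets as well. Of 70 spike-ins tested between AIN_VdrKO and NWD1, 1 was called (1.43%), and 11 had an unadjusted p under 0.05. Epcam, the epithelial surface marker of the crypt, was at 2010 to 2620 CPM in AIN_VdrKO and 495 to 684 CPM in NWD1. In AIN, Epcam had 568, 2110 and 311 CPM. The epithelial genes Cdh1 and Vil1 overlapped between AIN_VdrKO and NWD1. Cdh1 had 291, 388 and 485 CPM in AIN_VdrKO, against 353, 595 and 1090 CPM in NWD1. Vil1 had 218, 513 and 300 CPM in AIN_VdrKO, against 317, 482 and 792 CPM in NWD1.

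**Figure D1:**
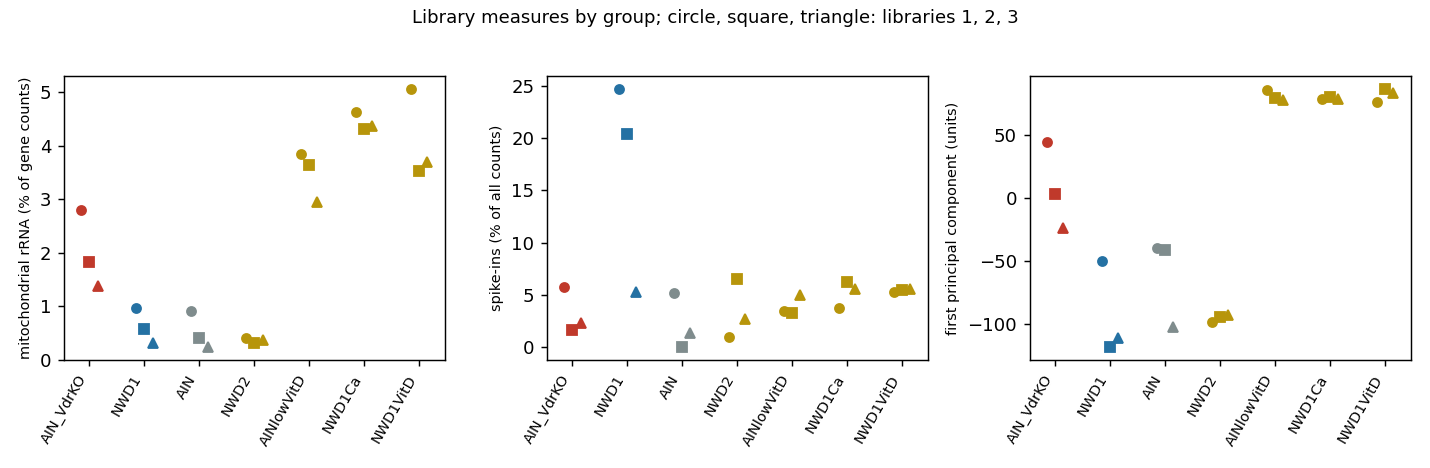
Each panel plots 1 measure (y axis) for the 3 libraries of each of the 7 groups (x axis): mitochondrial ribosomal RNA in percent of gene counts, spike-ins in percent of all counts, and the first principal component in units. AIN_VdrKO lies between both library sets in the first panel, at 1.379% to 2.804%, and NWD1 1 and NWD1 2 stand out in the second, at 24.7% and 20.4%.

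Of 16050 tested genes, 1854 were higher (11.6%) and 1198 lower (7.46%) in AIN_VdrKO than in NWD1, or 3052 in all (19%), at an adjusted p under 0.05 in edgeR's quasi-likelihood test with Benjamini-Hochberg adjustment. The median log2 fold change was 1.76 among the higher genes, -1.3 among the lower and 0.10 over all tested genes. The libraries of the groups did not overlap for 4280 genes (26.7%). Those of AIN_VdrKO lay above for 2451 (15.3%) and below for 1829 (11.4%). The balance of directions depended on the scaling: limma on log2(TPM + 1) moved the median of all genes to -0.35, with 751 genes higher and 3643 lower, so that 17.1% of its calls were higher, against 60.7% here. Without NWD1 2 the number of calls was 1869, and a fit of the 6 libraries alone made 1067. Against AIN, 2011 genes (12.5%) were called in AIN_VdrKO, 7.44% higher and 5.09% lower, and 123 (0.766%) in NWD1, 0.106% higher and 0.66% lower. Of the 3052 calls, 2366 (77.5%) had the same call between the library sets, which is 25.2% of the calls between the sets, and 66 (2.16%) had the opposite one. With the log2 share of mitochondrial ribosomal RNA added as a term, an alternative chosen after seeing the data and called the mitochondrial term here, 2275 genes were called, 1500 higher and 775 lower, and 1231 of them were among the 3052.

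**Figure D2:**
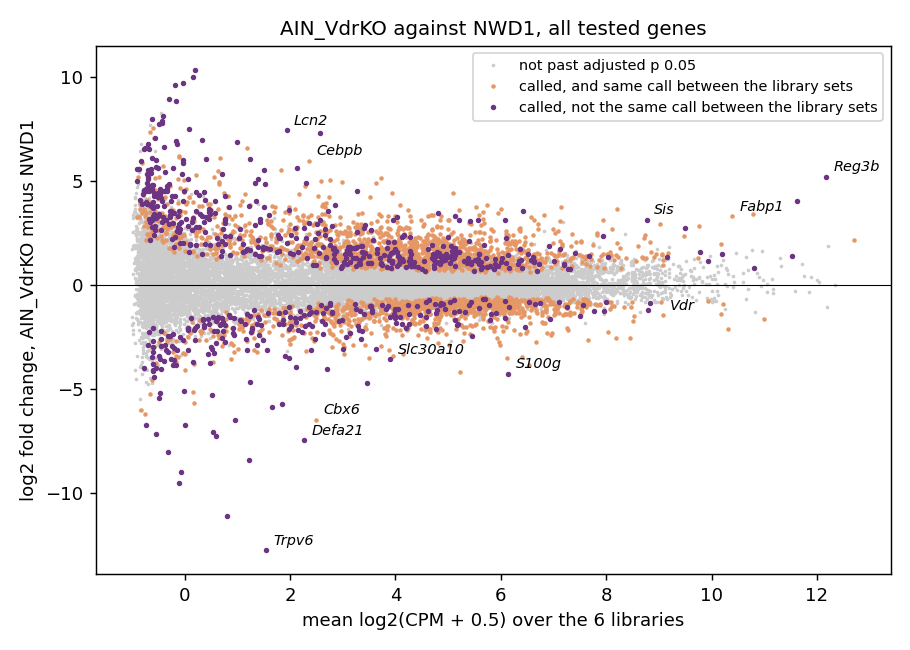
Each point is 1 of 16050 tested genes, with its mean log2(CPM + 0.5) over the 6 libraries on the x axis and its fitted log2 fold change, AIN_VdrKO minus NWD1, on the y axis. Orange points are the 2366 calls shared with the contrast between library sets, purple points the other calls, among them Trpv6 at -12.76, S100g at -4.27 and Reg3b at 5.19.

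Vdr (ENSMUSG00000022479.9) had 297, 482 and 247 CPM in the AIN_VdrKO libraries, against 604, 1269 and 894 CPM in NWD1 and 338, 373 and 746 CPM in AIN. Every AIN_VdrKO library was below every NWD1 library, and the group overlapped AIN. The AINlowVitD, NWD1Ca and NWD1VitD libraries, which are not labelled as knockouts, were at 155 to 327 CPM. Vdr was called lower in the second library set than in the first, at -1.22 (adjusted p = 0.000167, edgeR). Relative to NWD1, Vdr fell by 1.46 (log2; SE 0.36, adjusted p = 0.00806, edgeR), and its log2 fold change against AIN was -0.56 (adjusted p = 0.348, edgeR). A count over the whole gene includes reads from parts of the transcript that a deletion leaves in place, so it does not check the knockout. The call against NWD1 was lost without NWD1 2, at -1.13 (adjusted p = 0.0747), in the fit of the 6 libraries alone, at -1.51 (adjusted p = 0.0641), and with the mitochondrial term, at -0.92 (adjusted p = 0.21).

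The calcium genes Trpv6 and S100g were lower in AIN_VdrKO. Trpv6 (ENSMUSG00000029868.7) had 0, 0 and 0 counts in AIN_VdrKO, against 1071, 796 and 853 counts in NWD1 and 2, 2 and 0 counts in AIN. The NWD1 libraries were the high ones, and both groups on AIN76A were at or near 0. In NWD1 it averaged 16.8 ± 3.40 CPM (SD, n = 3). Set against a limit of 3 counts over the AIN_VdrKO libraries, Trpv6 was at least 1030-fold lower in AIN_VdrKO (fitted log2 fold change -12.76 ± 1.61 SE, adjusted p = 5.97e-05, edgeR). Its fitted change against AIN was -3.36 (adjusted p = 0.371), with both groups at or near 0. Elsewhere in the series, NWD2, NWD1Ca and AINlowVitD libraries had 0 to 5 counts of Trpv6, and NWD1VitD libraries 27, 29 and 383.

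S100g (ENSMUSG00000040808.4), the calbindin-D9k gene, had 46.0, 9.48 and 4.44 CPM in AIN_VdrKO, against 574, 401 and 235 CPM in NWD1 and 101.5, 106 and 43.2 CPM in AIN. The AIN_VdrKO and NWD1 libraries did not overlap, and AIN lay between them except for AIN 3, which was below AIN_VdrKO 1. The log2 fold change of S100g was -4.27 ± 0.95 (adjusted p = 0.00392, edgeR). Between the library sets S100g was called in the opposite direction. The call was lost without both spike-in-rich libraries NWD1 1 and NWD1 2, at -2.83 (adjusted p = 0.145). Slc30a10, a manganese exporter, had 3.55, 6.31 and 2.35 CPM in AIN_VdrKO, against 40.5, 41.9 and 81.3 CPM in NWD1 and 5.26, 11.8 and 4.995 CPM in AIN. AIN_VdrKO 2 was in the range of AIN and the others were below it, and Slc30a10 fell by 3.57 relative to NWD1 (SE 0.84, adjusted p = 0.00586, edgeR). That call was lost with the mitochondrial term, at -2.74 (adjusted p = 0.112).

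The promoters of Trpv6 and S100g are shown because these were the calcium genes with the largest falls. They are RefSeq sequence of GRCm38.p6, from 250 bases before to 50 after the start of the gene, read along the gene's strand. Trpv6 is at chr6:41636356-41636655 on the minus strand and S100g at chrX:162964550-162964849 on the minus strand. Capitals mark AGGTCA, the half-site of many nuclear receptors, or its complement TGACCT.
Trpv6: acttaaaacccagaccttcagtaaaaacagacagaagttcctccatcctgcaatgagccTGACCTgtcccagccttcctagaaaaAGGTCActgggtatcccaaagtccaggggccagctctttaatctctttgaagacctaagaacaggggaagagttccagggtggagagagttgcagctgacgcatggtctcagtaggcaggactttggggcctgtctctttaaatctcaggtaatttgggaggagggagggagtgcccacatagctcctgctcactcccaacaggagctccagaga
S100g: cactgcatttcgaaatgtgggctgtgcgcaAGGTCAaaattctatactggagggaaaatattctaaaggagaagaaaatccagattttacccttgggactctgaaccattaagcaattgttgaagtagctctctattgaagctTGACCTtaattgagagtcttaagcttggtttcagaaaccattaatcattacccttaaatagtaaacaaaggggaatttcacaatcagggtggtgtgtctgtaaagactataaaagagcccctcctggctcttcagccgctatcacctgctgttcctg
In both windows the half-site occurs once on each strand, 191 and 165 bases before the start in Trpv6 and 220 and 107 bases before it in S100g, counted to the first base of the match. Of 32851 promoters of this length, 5340 (16.3%) hold AGGTCA on either strand. A match of 6 letters describes the sequence and does not show binding.

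Of 26 listed targets of the vitamin D receptor and calcium transporters, 19 were tested. In that list 1 was higher and 5 were lower, with a median log2 fold change of -0.75, against 0.10 over all tested genes. With the mitochondrial term the median turned to 0.57, with 1 member higher and 2 lower. The others that fell were Vdr itself and Cldn2, a claudin that forms paracellular pores, which had 151, 122 and 298 CPM in AIN_VdrKO and 393, 506 and 345 CPM in NWD1 (-1.15 ± 0.34, adjusted p = 0.0252, edgeR). Sult2b1, a sulfotransferase, was the higher member (1.54 ± 0.53, adjusted p = 0.0493), with overlapping libraries. With a single library left out the number lower ranged from 3 without NWD1 2 to 9 without NWD1 1. Among members with too few counts to test, Cyp24a1 had 0, 0 and 5 counts in AIN_VdrKO, against 0, 0 and 14 in NWD1. Trpv5, the renal relative of Trpv6, had 0, 0 and 0 counts in AIN_VdrKO and 11, 24 and 4 in NWD1. Trpv6 and Trpv5 are similar in sequence, and the sources used here do not say how reads that match both were counted.

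**Figure D3:**
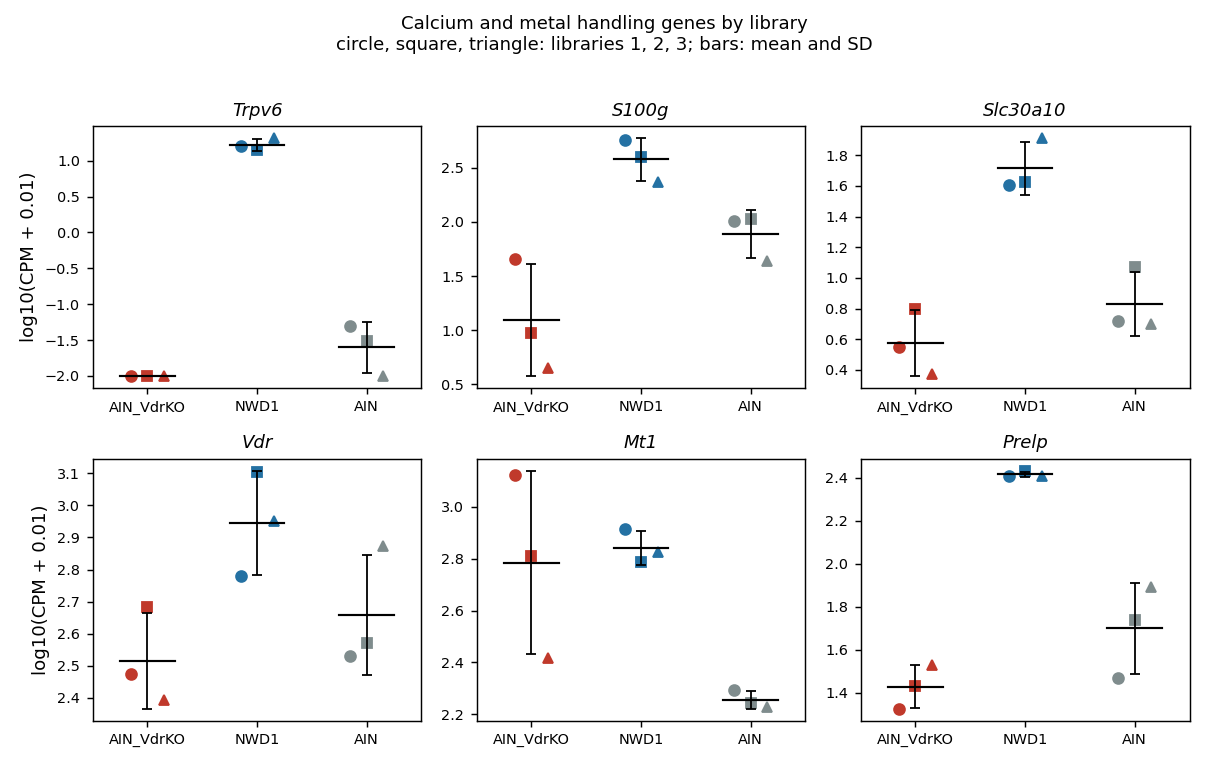
Each panel plots log10(CPM + 0.01) (y axis) of 1 gene in the 3 libraries of AIN_VdrKO, NWD1 and AIN (x axis), with bars for the mean and SD. Trpv6, S100g, Slc30a10 and Prelp are lower in every AIN_VdrKO library than in every NWD1 library, Vdr too at a smaller distance, while Mt1 overlaps.

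Partners of the receptor moved both ways. Of 14 tested, 3 were higher and 1 lower, with a median log2 fold change of 0.13. On log2(TPM + 1) the median was -0.53, against -0.35 over all tested genes. The corepressor gene Ncor1 had 232, 265 and 211 CPM in AIN_VdrKO, against 99.0, 88.7 and 77.9 CPM in NWD1 (1.45 ± 0.24, adjusted p = 0.000376, edgeR), and the coactivator gene Ncoa1 rose by 1.22 ± 0.25. Hr, a corepressor known from skin, fell by 1.58 (SE 0.39). All 4 calls of this list had the same call between the library sets, against 77.5% over all called genes.

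Zinc transporter genes moved both ways. The metallothioneins, which bind zinc and copper, were not called: Mt1 had 1330, 649 and 262 CPM in AIN_VdrKO, against 819, 612 and 672 CPM in NWD1 and 180.2 ± 14.2 CPM in AIN (SD, n = 3). The AIN_VdrKO libraries spanned those of NWD1, and both groups were above AIN. Mt1 had a log2 fold change of 0.22 ± 0.46 between AIN_VdrKO and NWD1 (adjusted p = 0.766, edgeR), and Mt2 had 0.12 ± 0.76 (adjusted p = 0.929), and both turned negative on log2(TPM + 1), at -0.71 and -1.80. Against AIN, Mt1 was higher in AIN_VdrKO by 2.35 (adjusted p = 0.00526) and in NWD1 by 2.13 (adjusted p = 0.0455), in contrasts that share the AIN libraries. Among zinc transporters, Slc30a9 had 50.6, 64.9 and 50.8 CPM in AIN_VdrKO, against 16.1, 12.6 and 13.2 CPM in NWD1 (2.08 ± 0.32, adjusted p = 0.000227). The importer gene Slc39a1 (2.12 ± 0.36) and the exporter gene Slc30a1 (1.81 ± 0.41) rose as well, and the vesicular transporter gene Slc30a2 fell by 2.28 (SE 0.45). In all, 5 of 19 tested members of this list were higher and 2 lower, with a median of 0.11. On log2(TPM + 1) the list median was -0.71, against -0.35 over all tested genes. Of 13 iron genes, 2 were lower, the heme oxygenase gene Hmox1 and Hfe, whose call (adjusted p = 0.0446) was lost in 14 of 19 alternatives, among them each omission of 1 library. Hmox1 had 4, 0 and 3 counts in AIN_VdrKO, against 173, 56 and 82 in NWD1 (-5.17 ± 1.06, adjusted p = 0.00231).

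Of 16 tested antimicrobial and acute phase genes, 7 were higher in AIN_VdrKO and none lower, at a median log2 fold change of 2.11. Reg3b (ENSMUSG00000071356.4), a secreted lectin of the epithelium, had 44250, 34030 and 20420 CPM in AIN_VdrKO, against 295, 408 and 2638 CPM in NWD1 and 2189, 753 and 1980 CPM in AIN. The lowest AIN_VdrKO library was above the highest of NWD1 and of AIN. Reg3b rose by 5.19 ± 1.01 on the log2 scale relative to NWD1 (adjusted p = 0.00153, edgeR) and by 4.55 relative to AIN (adjusted p = 0.00443). Reg3g, its neighbour in the family and a lectin that kills Gram-positive bacteria, had 19790, 17970 and 10650 CPM in AIN_VdrKO, against 308, 304 and 2727 CPM in NWD1 (4.002 ± 0.985, adjusted p = 0.00788). The same order held: NWD1 3 was the highest NWD1 library for both lectins and stayed under AIN_VdrKO 3.

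Lcn2 (ENSMUSG00000026822.9), which withholds iron from bacteria, had 938, 158 and 5857 counts in AIN_VdrKO, against 9, 0 and 14 in NWD1. In CPM these were 37.9, 6.87 and 41.6 in AIN_VdrKO and 0.133, 0 and 0.338 in NWD1, and every AIN_VdrKO library was above every NWD1 library (7.41 ± 1.18, adjusted p = 0.00031, edgeR). Retnlb, a secreted protein of goblet cells, had 36.6, 13.6 and 36.1 CPM in AIN_VdrKO, against 0.652, 0.543 and 1.54 CPM in NWD1 (4.97 ± 0.72, adjusted p = 0.000123). Both were also higher than in AIN, Lcn2 by 9.41 (adjusted p = 0.000133) and Retnlb by 5.67 (adjusted p = 0.000105). Il18, an epithelial cytokine, had 241, 226 and 125 CPM in AIN_VdrKO, against 17.2, 14.6 and 53.0 CPM in NWD1 and 245, 231 and 261 CPM in AIN. For Il18 the NWD1 libraries were the low ones, with AIN_VdrKO near AIN in 2 of 3 libraries (3.12 ± 0.61, adjusted p = 0.00163). Reg1 (2.83 ± 0.79) and Saa3 (2.34 ± 0.64) were the other members called. With 1 library left out, 5 members (without NWD1 2) to 10 (without NWD1 3) were higher. Without NWD1 2 the call of Reg3g was lost (adjusted p = 0.0538), and without both spike-in-rich NWD1 libraries those of Reg3b, Reg3g and Lcn2 were lost (adjusted p = 0.0881, 0.229 and 0.0518) at log2 fold changes of 3.40, 2.00 and 4.74, where the lone NWD1 library is taken to vary as the other groups do. S100a8 and S100a9, granulocyte genes too low to test, had 9, 1 and 26 and 11, 0 and 37 counts in AIN_VdrKO and 0 counts in each NWD1 library.

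The promoters of Reg3b and Reg3g are shown because both genes moved together. They are RefSeq sequence of GRCm38.p6 over the same window, Reg3b at chr6:78370635-78370934 on the plus strand and Reg3g at chr6:78468825-78469124 on the minus strand. Capitals mark the longest run that they share, of 29 bases.
Reg3b: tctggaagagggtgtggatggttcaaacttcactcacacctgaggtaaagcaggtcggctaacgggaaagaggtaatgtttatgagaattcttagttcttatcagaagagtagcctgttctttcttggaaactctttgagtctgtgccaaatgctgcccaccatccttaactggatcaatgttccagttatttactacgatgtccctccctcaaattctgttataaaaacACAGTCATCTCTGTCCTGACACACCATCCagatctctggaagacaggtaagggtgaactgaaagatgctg
Reg3g: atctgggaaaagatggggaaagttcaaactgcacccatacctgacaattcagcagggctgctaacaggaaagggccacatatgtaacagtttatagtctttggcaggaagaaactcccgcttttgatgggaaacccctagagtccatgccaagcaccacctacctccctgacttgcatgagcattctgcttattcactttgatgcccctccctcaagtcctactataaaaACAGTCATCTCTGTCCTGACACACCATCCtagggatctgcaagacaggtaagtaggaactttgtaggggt
Both windows hold TATAAA on the printed strand shortly before that run, 29 bases before the start in Reg3b and 27 in Reg3g, as do 2733 of 32851 promoters (8.32%). TTCNNNGAA, a spacing recognised by STAT factors, is present in the Reg3b window, 129 bases before the start, and not in the Reg3g window, and 2726 promoters (8.3%) hold it on either strand. The similarity also means that reads of near-identical parts of these genes may be shared or lost in counting.

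Of 10 tested genes of antigen presentation by MHC class II, 7 were higher and none lower, at a median log2 fold change of 3.07. With the mitochondrial term 0 were called, at a median of 2. H2-Aa, a class II chain, had 39.7, 161 and 2.23 CPM in AIN_VdrKO, against 4.30, 2.84 and 2.29 CPM in NWD1 and 4.67, 3.94 and 1.12 CPM in AIN. AIN_VdrKO 1 and 2 were high, and AIN_VdrKO 3 lay just below the NWD1 range (4.53 ± 0.99, adjusted p = 0.00358, edgeR). Cd74, the invariant chain, showed the same order, with 440, 883 and 18.0 CPM in AIN_VdrKO and 63.4, 26.6 and 31.4 CPM in NWD1 (3.54 ± 0.86, adjusted p = 0.00756). H2-Ab1, H2-Eb1, H2-DMa, H2-DMb1 and the protease gene Ctss were called too. Of the 7 called members only H2-DMb1 and Ctss did not overlap between the groups. Over all tested genes, 1612 of the 1854 higher calls did not overlap. Without AIN_VdrKO 2, 3 members were higher, at a median of 1.55. Between the library sets none of the 7 had the same call, and H2-Ab1, H2-DMa and H2-DMb1 had the opposite one.

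Markers of immune cells were looked at beside them. The summed level of 12 T and B lymphocyte markers was 21.9, 30.5 and 13.3 CPM in AIN_VdrKO and 9.83, 21.4 and 32.5 CPM in NWD1, and 2 of the 12 were higher, Cd3g and Cd7. The sums overlapped. Ptprc, a gene of all leukocytes, had 9.09, 11.5 and 3.78 CPM in AIN_VdrKO and 5.41, 14 and 28.6 CPM in NWD1. It weighs heavily in the lymphocyte sums, so their overlap does not describe the markers specific to lymphocytes. The median log2 fold change was 1.47 over the 12 markers and 1.08 over 7 myeloid markers, both above the 0.10 of all tested genes. Cd3g, a chain of the T cell receptor complex, had 64 counts over the AIN_VdrKO libraries and 0 over those of NWD1, so it was at least 18.8-fold higher in AIN_VdrKO, and AIN_VdrKO 3 was its lowest AIN_VdrKO library, at 0.0924 CPM. The summed level of 7 myeloid markers was 10.1, 8.18 and 9.02 CPM in AIN_VdrKO and 4.79, 5.31 and 19.0 CPM in NWD1, with 0 of 7 called by edgeR, 0 at an unadjusted p under 0.05 and 0 by DESeq2. Among these, Fcer1g, an Fc receptor chain, had a log2 fold change of 1.65 ± 1.14 (adjusted p = 0.327). The macrophage gene Csf1r had at most 2 counts in any library of both groups. AIN_VdrKO 2, the library highest for H2-Aa and Cd74, was also the highest of both groups for the B cell gene Cd79a, at 0.565 CPM, and the T cell gene Cd3e, at 1 CPM, and had 131 counts of the plasma cell gene Igj, against 0 and 9 counts in AIN_VdrKO 1 and 3 and 0, 0 and 4 counts in NWD1. The part of immune cells in the MHC class II values was not tested.

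Of 39 tested interferon response genes, 10 were higher and 1 lower, at a median of 1.02. Ifi44 had 9.94, 15.7 and 2.43 CPM in AIN_VdrKO, against 0.208, 0 and 1.45 CPM in NWD1 and 8.29, 15.9 and 7.89 CPM in AIN. AIN_VdrKO and AIN overlapped, and the NWD1 libraries were the low ones (5.09 ± 0.96, adjusted p = 0.0012, edgeR). Bst2 fell by 1.80 (SE 0.53, adjusted p = 0.023). The list median was -0.40 in AIN_VdrKO and -1.27 in NWD1, each relative to AIN. Leaving out 1 library gave 2 higher members without NWD1 2 or AIN_VdrKO 2, 4 without AIN_VdrKO 1 and up to 11 without AIN_VdrKO 3. Genes of presentation by MHC class I moved both ways, 5 higher and 2 lower of 23 tested (median 0.51). On log2(TPM + 1) their median was -0.20, against -0.35 over all tested genes. The immunoproteasome gene Psmb8 rose by 1.91 ± 0.36 (adjusted p = 0.00131). Pdia3, a chaperone of the loading complex, had 141, 148 and 145 CPM in AIN_VdrKO, against 660, 838 and 1058 CPM in NWD1, and fell by 2.55 (SE 0.33, adjusted p = 5.31e-05).

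**Figure D4:**
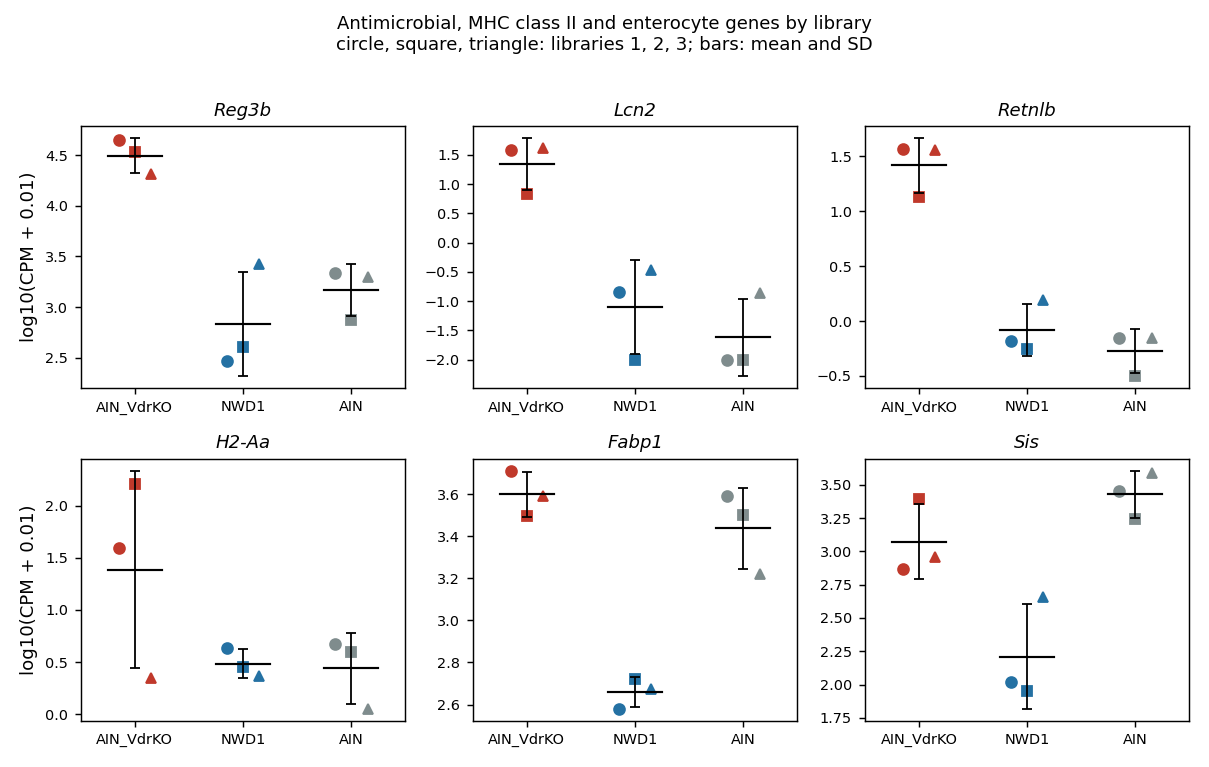
Each panel plots log10(CPM + 0.01) (y axis) of 1 gene in the 3 libraries of AIN_VdrKO, NWD1 and AIN (x axis), with bars for the mean and SD. Reg3b, Lcn2 and Retnlb are higher in every AIN_VdrKO library than in every library of NWD1 and AIN, H2-Aa is high in AIN_VdrKO 1 and 2, and Fabp1 and Sis are low in NWD1.

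Of 32 tested enterocyte genes, 8 were higher and 1 lower in AIN_VdrKO than in NWD1, at a median log2 fold change of 1.32. The list overlapped between the groups: its median log2 CPM was 7.14, 8.77 and 7.46 in AIN_VdrKO and 6.26, 6.47 and 7.68 in NWD1, and Alpi, the intestinal alkaline phosphatase gene, was highest in NWD1 3 (0.83 ± 0.68, adjusted p = 0.411, edgeR). In sorted bulk cells, fewer cells of a type and less RNA per cell cannot be told apart. Fabp1, the fatty acid carrier, had 5121, 3136 and 3909 CPM in AIN_VdrKO, against 380, 527 and 472 CPM in NWD1 and 3888, 3181 and 1665 CPM in AIN. Sis, which encodes sucrase-isomaltase, had 738, 2475 and 901 CPM in AIN_VdrKO, against 105, 88.7 and 458 CPM in NWD1 and 2858, 1733 and 3847 CPM in AIN. For both genes NWD1 was the low group and did not overlap AIN_VdrKO (Fabp1 3.29 ± 0.60, adjusted p = 0.000962, and Sis 3.13 ± 0.76, adjusted p = 0.00721, edgeR). The call of Fabp1 was lost with DESeq2 (adjusted p = 0.052) and that of Sis without NWD1 2 (adjusted p = 0.052). Apoa1 and Apoc3, apolipoproteins, Rbp2, a retinol carrier, Mgam, a maltase, Khk, which takes up fructose into metabolism, and Dgat1, which makes triglyceride, were also higher. Mep1a, a brush border protease, had 4.32, 14.7 and 9.48 CPM in AIN_VdrKO, against 16.6, 34.0 and 33.2 CPM in NWD1 and 63.5, 32.5 and 44.3 CPM in AIN, and fell by 1.43 (SE 0.45, adjusted p = 0.0313). Relative to AIN the list median was -0.91 in AIN_VdrKO and -2.15 in NWD1. The number of higher members was 1 without NWD1 2, 3 without AIN_VdrKO 2 and at most 10 with any 1 library left out.

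Transcription factors of intestinal identity moved both ways, 6 higher and 3 lower of 17 tested. Klf5, a factor of proliferating crypt cells, had 427, 652 and 494 CPM in AIN_VdrKO, against 104, 115 and 80.7 CPM in NWD1 and 82.1, 248 and 47.6 CPM in AIN (2.48 ± 0.42, adjusted p = 0.000539, edgeR). Gata6 (1.72 ± 0.28), Gata4 (1.40 ± 0.36) and Cdx1 (1.86 ± 0.42) rose as well. Every AIN_VdrKO library of Klf5 was above every library of NWD1 and AIN. Of the 9 calls, 7 had the same call between the library sets, which is near the 77.5% over all called genes.

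Paneth cell genes were split, with 5 higher and 3 lower of 19 tested and a median of 1.23. Ang4, an antimicrobial ribonuclease, had 1018, 1593 and 148 CPM in AIN_VdrKO, against 166, 80.6 and 67.3 CPM in NWD1, with AIN_VdrKO 3 inside the NWD1 range (3.13 ± 0.65, adjusted p = 0.00258, edgeR). The summed level of the 19 genes was 40440, 56080 and 19550 CPM in AIN_VdrKO and 12870, 4209 and 6977 CPM in NWD1, without overlap. Defensin genes went both ways. The abundant Defa24 had 12200, 16100 and 3550 CPM in AIN_VdrKO, against 5510, 1840 and 1600 CPM in NWD1, with overlapping libraries. Defa17, Lyz1 and Mmp7 overlapped as well. Defensin genes at lower levels were among the lower members. Defa21 had 1, 14 and 12 counts in AIN_VdrKO, against 4247, 967 and 1317 in NWD1, and was also abundant in AIN, at 15.5 ± 1.33 CPM (SD, n = 3). It fell by 7.48 (SE 1.305, adjusted p = 0.000648), Defa20 by 4.72 (SE 0.98) and Defa22 by 3.08 (SE 0.96), and between the library sets these 3 were called in the opposite direction. Defa23 was at 0 in each NWD1 library and at 1.53 CPM over the AIN_VdrKO libraries, at least 84.9-fold higher. Defensin genes have near-identical copies that also differ between mouse strains, and counting may split or lose their reads, so the level of a single copy is uncertain. With 1 library left out, 3 members (without NWD1 2) to 8 (without NWD1 1 or AIN_VdrKO 3) were higher.

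Atoh1, Dll1, Dll4 and Spdef, genes of secretory fate, were lower in AIN_VdrKO. Of these, Atoh1, the factor that commits crypt cells to secretory lineages, had 27.0, 46.9 and 42.1 CPM in AIN_VdrKO, against 113, 120 and 145 CPM in NWD1 and 60.4, 64.4 and 58.3 CPM in AIN. All AIN_VdrKO libraries were below those of NWD1 and of AIN (-1.68 ± 0.27, adjusted p = 0.000386, edgeR, relative to NWD1). Relative to AIN, Atoh1 was not called, at -0.62 (adjusted p = 0.166, edgeR). The Notch ligand gene Dll1 had 13.8, 26.1 and 28.0 CPM in AIN_VdrKO, against 54.9, 72.3 and 135 CPM in NWD1 (-1.94 ± 0.37, adjusted p = 0.00132). Dll4, another ligand, fell by 1.61 (SE 0.39) and Spdef, a goblet and Paneth cell factor, by 1.40 (SE 0.32), while the ligand gene Jag1 (1.74 ± 0.37) and the Notch target Nrarp (1.76 ± 0.54) rose. This list of Notch pathway and secretory fate genes thus had 2 higher and 4 lower members of 17 tested. Among these calls, 5 had the same call between the library sets, against 77.5% over all called genes. The Dll1 call was lost with the mitochondrial term, at -0.69 (adjusted p = 0.152, edgeR). Goblet cell genes had 1 higher and 5 lower of 19 tested, at a median of -0.71. Slc12a8 had 49.96, 69.6 and 55.2 CPM in AIN_VdrKO, against 211, 167 and 272 CPM in NWD1 (-1.82 ± 0.27, adjusted p = 0.00015). The defining goblet markers Muc2 and Tff3 overlapped between the groups, at 241, 841 and 782 CPM for Muc2 in AIN_VdrKO and 823, 396 and 1234 CPM in NWD1.

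Of 18 tested tuft cell genes, 5 were lower and none higher, at a median of -1.50. Trpm5, a channel of chemosensory cells, had 55.9, 71.0 and 51.0 CPM in AIN_VdrKO, against 113, 274 and 551 CPM in NWD1 and 133, 94.4 and 266 CPM in AIN. NWD1 3 was the highest library, and NWD1 1 was still above AIN_VdrKO (-2.42 ± 0.65, adjusted p = 0.0143, edgeR). Pou2f3, the factor that specifies tuft cells, had 23.7, 21.9 and 15.9 CPM in AIN_VdrKO, against 39.97, 69.6 and 115 CPM in NWD1 (-1.92 ± 0.52, adjusted p = 0.0136), and its call was lost without NWD1 3 (adjusted p = 0.0522). Avil, Spib and Siglec5 were the other called members. Without NWD1 3, 2 members were lower. With the mitochondrial term 0 were called at a median of -0.75, and Avil, Spib and Pou2f3 had log2 fold changes of -1.08, -1.07 and -0.81 (adjusted p = 0.394, 0.372 and 0.453). All 5 calls had the same call between the library sets, against 77.5% over all called genes. Enteroendocrine genes moved both ways, 4 higher and 2 lower of 23 tested. Neurog3, which starts the endocrine fate, had 11.8, 4.92 and 5.59 CPM in AIN_VdrKO, against 26.6, 20.4 and 29.2 CPM in NWD1 (-2.07 ± 0.46, adjusted p = 0.00396), and the hormone gene Gip had 1580, 949 and 588 CPM in AIN_VdrKO, against 225, 57.0 and 523 CPM in NWD1 (2.402 ± 0.58, adjusted p = 0.00697).

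Lgr5 itself had 33.3, 44.9 and 24.0 CPM in AIN_VdrKO, against 44.8, 59.9 and 81.7 CPM in NWD1 and 9.49, 24.4 and 45.3 CPM in AIN. The groups overlapped, since AIN_VdrKO 2 and NWD1 1 were alike (-1.02 ± 0.52, adjusted p = 0.172, edgeR). Among 24 tested stem cell identifiers 2 were higher and 5 lower, at a median of -0.17. The lower ones include Vdr itself, which is on this list. Over all tested genes 11.6% were higher and 7.46% lower. The stem cell markers Ascl2, Smoc2 and Axin2 had log2 fold changes of -0.32, -0.03 and -0.13 and were not called. Olfm4, the most abundant of these markers, had 2740, 5500 and 2630 CPM in AIN_VdrKO, against 5980, 8040 and 5500 CPM in NWD1. AIN_VdrKO 1 and 3 were below every NWD1 library for Olfm4, and AIN_VdrKO 2 was like NWD1 3. Lrig1, a brake on growth factor receptors, had 54.9, 60.5 and 104 CPM in AIN_VdrKO, against 48.4, 21.97 and 21.9 CPM in NWD1 (1.16 ± 0.33, adjusted p = 0.0197). Tnfrsf19 had 13.5, 15.5 and 7.60 CPM in AIN_VdrKO, against 29.8, 38.5 and 36.1 CPM in NWD1 (-1.82 ± 0.48, adjusted p = 0.0125), with AIN at 4.01, 7.41 and 14.4 CPM. Of 23 Wnt target genes 4 were lower and none higher, at a median of -0.01, against 0.10 over all tested genes. Among the lower ones was Myc, which had 68.2, 90.5 and 112 CPM in AIN_VdrKO, against 173, 244 and 155 CPM in NWD1 (-1.17 ± 0.38, adjusted p = 0.0384). Another, Apcdd1, had 2, 1 and 5 counts in AIN_VdrKO, against 72, 3 and 21 in NWD1, with overlapping libraries in CPM. With 1 library left out, 1 to 3 Wnt targets were lower, with 1 without NWD1 2 or AIN_VdrKO 2.

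Of 42 S phase genes 1 was higher and 5 were lower, and of 48 genes of G2 and mitosis 5 were lower and none higher, at medians of -0.39 and -0.44. These shares are near the 7.46% lower over all tested genes. Pold1, the catalytic subunit of a replicative polymerase, had 26.1, 27.6 and 37.5 CPM in AIN_VdrKO, against 86.5, 103 and 96.05 CPM in NWD1 (-1.76 ± 0.32, adjusted p = 0.00102, edgeR). The mitotic phosphatase gene Cdc25b had 18.3, 30.6 and 18.5 CPM in AIN_VdrKO, against 76.9, 94.4 and 83.9 CPM in NWD1 (-1.98 ± 0.27, adjusted p = 6.76e-05). Neither gene overlapped between the groups. All 11 calls of these lists had the same call between the library sets, against 77.5% over all called genes. Without NWD1 2, 2 S phase and 2 mitosis genes were lower.

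Nuclear genes of oxidative phosphorylation had 16 higher and none lower of 76 tested, at a median log2 fold change of 0.88. Of these 16, 4 did not overlap between the groups, against 1612 of the 1854 higher calls over all tested genes. Ndufb4, a complex I subunit, had 78.4, 34.3 and 24.1 CPM in AIN_VdrKO, against 21.3, 11.7 and 7.11 CPM in NWD1 (1.74 ± 0.42, adjusted p = 0.00661, edgeR). Cytochrome c, encoded by Cycs, had 607, 284 and 239 CPM in AIN_VdrKO, against 182, 120 and 95.4 CPM in NWD1 (1.49 ± 0.38, adjusted p = 0.0103). In both groups library 1 was the highest for these genes. All 16 calls had the same call between the library sets, against 77.5% over all called genes. The list median between the sets was 2.14. The count ran from 1 without AIN_VdrKO 1 and 2 without NWD1 2 or NWD1 3 to 34 without NWD1 1 and 40 without AIN_VdrKO 3. On log2(TPM + 1) 2 genes were higher and 4 lower with limma, at a median of 0.08, against -0.35 over all tested genes. With the mitochondrial term 0 were called at a median of -0.35, and Ndufb4 had a log2 fold change of 0.24 (adjusted p = 0.716) and Cycs of 0.58 (adjusted p = 0.428). Cytosolic ribosomal protein genes had 2 of 76 higher (Rpl35 and Rpl17), a median of 0.85, a median of 2.19 between the library sets, and 0 to 30 higher with 1 library left out. Of 11 tested genes encoded by mitochondrial DNA, 0 were called by edgeR or DESeq2 and 1 had an unadjusted p under 0.05.

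Regulators of mitochondrial biogenesis had 1 higher and 2 lower of 16. Esrrg, an orphan nuclear receptor, had 11.7, 15.1 and 16.0 CPM in AIN_VdrKO, against 43.1, 77.8 and 83.7 CPM in NWD1 and 18.3, 26.8 and 33.9 CPM in AIN, and fell by 2.35 relative to NWD1 (SE 0.38, adjusted p = 0.000319, edgeR). Ppargc1a, a coactivator that drives this programme, had 34.7 ± 22.7 CPM in AIN_VdrKO and 23.1 ± 14.0 CPM in NWD1 (SD, n = 3 each), with a log2 fold change of 0.79 ± 0.54 (adjusted p = 0.323). The groups overlapped for Ppargc1a. The counts of carbon metabolism genes below stand beside 11.6% higher and 7.46% lower over all tested genes. Among 22 glycolysis genes 2 were lower, Hk1 and the glucose transporter gene Slc2a1. Hexokinase 1 (Hk1) had 4.12, 3.09 and 1.99 CPM in AIN_VdrKO, against 7.95, 18.8 and 40.1 CPM in NWD1 (-2.84 ± 0.62, adjusted p = 0.00348). Among 25 genes of the TCA cycle and pyruvate entry, Brp44, a subunit of the mitochondrial pyruvate carrier, was higher (1.36 ± 0.41) and the pyruvate carboxylase gene Pcx lower (-1.72 ± 0.47). Brp44 lost its call in 10 of 19 alternatives and Pcx in 8, and with the mitochondrial term they were at 0.15 and -0.27. Of 29 fatty acid oxidation genes 3 were higher, Fabp1, Acadl and Ppard, whose call (adjusted p = 0.0445, overlapping libraries) was lost in 13 of 19 alternatives. Acadl, a long-chain acyl-CoA dehydrogenase, had 297, 439 and 592 CPM in AIN_VdrKO, against 71.1, 198 and 89.5 CPM in NWD1 (1.91 ± 0.40, adjusted p = 0.00276). In sterol metabolism Srebf2, a factor that drives cholesterol synthesis and uptake, fell by 1.08 (SE 0.25). That list of 25 sterol and fatty acid synthesis genes had 1 higher and 2 lower.

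Glutathione and NRF2 target genes had 7 higher and 2 lower of 27 tested, at a median of 0.82. Gclm, the modifier subunit of the enzyme that limits glutathione synthesis, had 84.2, 152 and 112 CPM in AIN_VdrKO, against 19.6, 13.9 and 15.4 CPM in NWD1 and 25.9, 43.6 and 15.03 CPM in AIN. Every AIN_VdrKO library was above every library of both other groups (2.90 ± 0.34, adjusted p = 2.09e-05, edgeR, relative to NWD1). Its catalytic partner Gclc had 31.6, 55.6 and 73.8 CPM in AIN_VdrKO, against 17.3, 13.9 and 10.2 CPM in NWD1 (1.89 ± 0.31, adjusted p = 0.00043). The glutathione reductase gene Gsr (2.48 ± 0.43), the peroxidase genes Gpx2 (1.58 ± 0.38) and Gpx1 (1.13 ± 0.37), Sod1 (1.63 ± 0.40) and Prdx1 (0.82 ± 0.28) rose as well. Cyp2c55, a cytochrome P450, had 2, 8 and 46 counts in AIN_VdrKO, against 564, 1494 and 413 in NWD1, and 10.8 ± 1.34 CPM in AIN (SD, n = 3). It was low in AIN_VdrKO relative to both other groups (-5.89 ± 0.88, adjusted p = 0.000171, relative to NWD1). The second lower member was Hmox1, given above with the iron genes. On log2(TPM + 1) 4 members were higher and 5 lower, and the number higher was 4 without NWD1 2.

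Chromatin remodelers and histone modifiers had 7 higher and 1 lower of 34 tested, at a median of 0.23. On log2(TPM + 1) the median was -0.39, near the -0.35 of all tested genes, with 3 higher and 4 lower. Chd1, a remodeler of active chromatin, had 53.2, 54.9 and 57.7 CPM in AIN_VdrKO, against 15.9, 13.0 and 17.3 CPM in NWD1 and 12.5, 15.2 and 16.3 CPM in AIN (1.88 ± 0.21, adjusted p = 1.25e-05, edgeR, relative to NWD1). The Polycomb gene Suz12 (1.53 ± 0.26) and the demethylase gene Kdm1a (1.48 ± 0.29) rose as well. All 8 calls had the same call between the library sets, against 77.5% over all called genes. Immediate early and dissociation stress genes had 1 higher, Jund, and 1 lower, Btg2, of 22. Jund had 31.1, 60.8 and 34.6 CPM in AIN_VdrKO, against 7.77, 2.93 and 2.29 CPM in NWD1 (3.28 ± 0.64, adjusted p = 0.0016). Of 23 genes of ER folding, 2 were higher (Edem1 and Dnajc3) and 2 lower. Ern2, the stress sensor of mucous cells, had 19.0, 29.8 and 21.2 CPM in AIN_VdrKO, against 81.4, 58.2 and 140 CPM in NWD1 (-1.92 ± 0.36, adjusted p = 0.00136). Herpud1 was the other lower member.

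**Figure D5:**
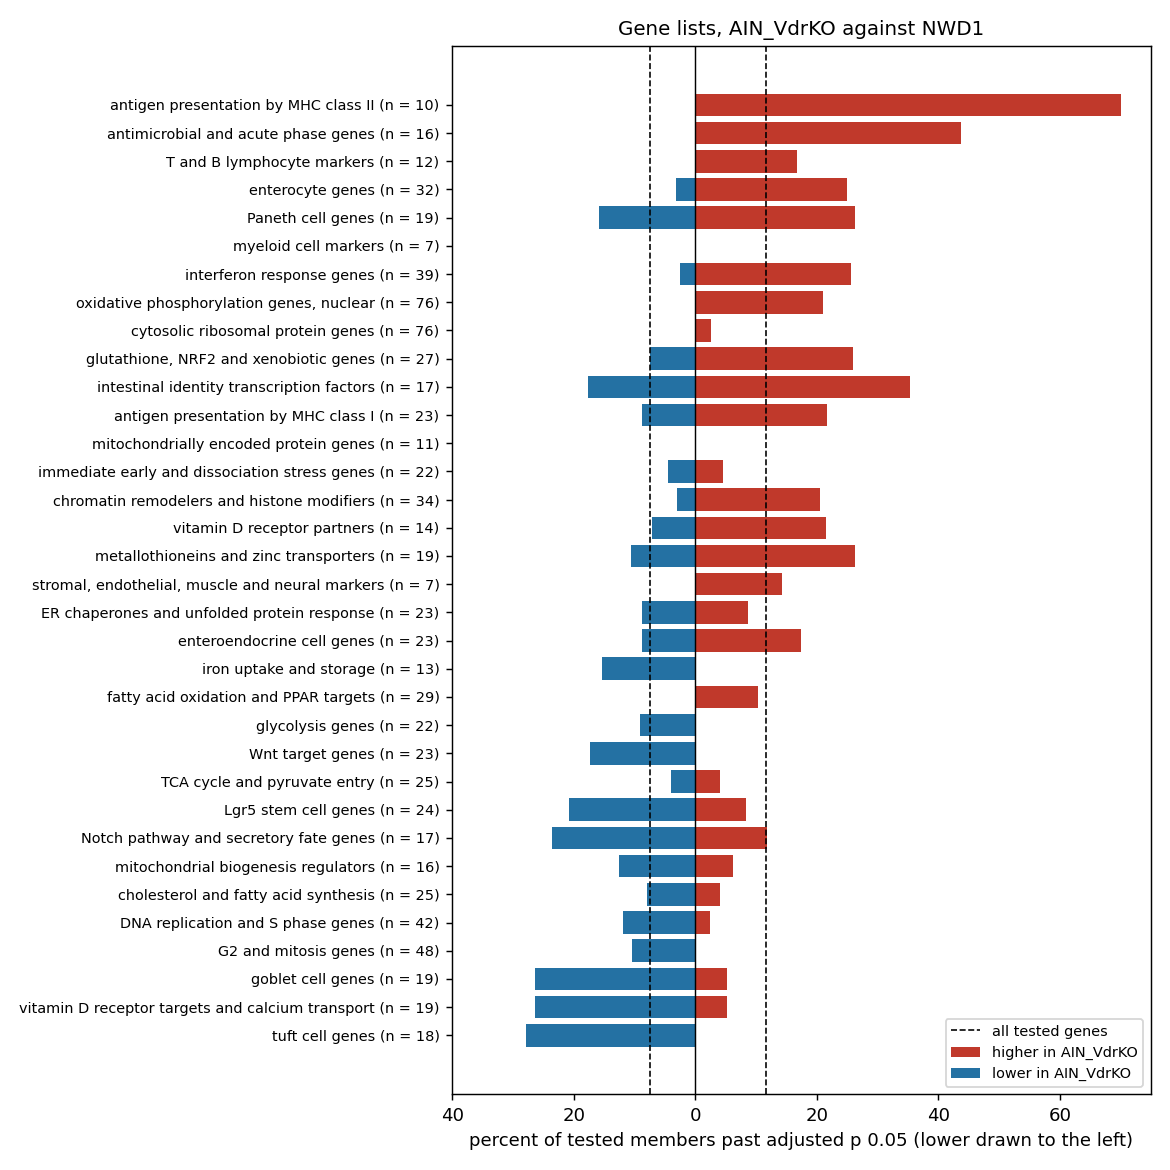
For each of 34 gene lists (y axis, with the number of tested members), bars give the percent of members that were called higher in AIN_VdrKO (right) and lower (left) than in NWD1 on the x axis. Dashed lines mark 11.6% higher and 7.46% lower, the shares over all 16050 tested genes, and MHC class II, with 7 of 10 higher, and tuft cell genes, with 5 of 18 lower, are at the ends.

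The largest changes were ranked among called genes whose 6 libraries averaged 2 or more in log2 CPM and whose groups did not overlap. Cebpb, a transcription factor of acute phase and inflammatory responses, had 25.4, 34.2 and 26.1 CPM in AIN_VdrKO, against 0.756, 0.473 and 0.12 CPM in NWD1 and 0.538, 1.23 and 0.343 CPM in AIN. It was raised in AIN_VdrKO relative to both groups (5.95 ± 0.55, adjusted p = 2.61e-06, edgeR, relative to NWD1). The kinase gene Dapk3 (4.93 ± 0.47), the GATA cofactor gene Zfpm1 (4.88 ± 0.58), the TFIID subunit gene Taf10 (4.40 ± 0.61) and the sorting nexin gene Snx20 (4.20 ± 0.35) also rose, with Tmem160, Nt5dc2 and Endog between 3.90 and 4.38. These genes and Cebpb had the same call between the library sets. Sprr2a3, a small proline-rich gene of the epithelium, had 89.3, 13.5 and 1.94 CPM in AIN_VdrKO, against 0.697, 0.701 and 1.09 CPM in NWD1 (5.59 ± 1.39, adjusted p = 0.00832), and its call was lost without AIN_VdrKO 1 (adjusted p = 0.0678).

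Among the falls, Cbx6, a Polycomb protein gene, had 10, 14 and 39 counts in AIN_VdrKO, against 2337, 2320 and 1155 in NWD1. Its levels were 0.404, 0.609 and 0.277 CPM in AIN_VdrKO, against 34.6, 40.6 and 27.9 CPM in NWD1 and 11.7, 14.1 and 19.8 CPM in AIN, with AIN between the other groups (-6.49 ± 0.42, adjusted p = 4.41e-08, edgeR). Tmed9, a cargo receptor of the early secretory pathway, had 10.6, 7.18 and 8.24 CPM in AIN_VdrKO, against 195, 157 and 124 CPM in NWD1 (-4.17 ± 0.32, adjusted p = 2.75e-07). The disulfide-forming oxidase gene Qsox1 (-3.50 ± 0.36), the aldehyde dehydrogenase gene Aldh2 (-3.87 ± 0.38) and the deiodinase gene Dio1 (-3.53 ± 0.55) fell as well, with AIN means of 156.4, 238 and 95.3 CPM. All 5 had the same call between the library sets. Prelp, an extracellular matrix protein gene, had 21.1, 27.1 and 33.6 CPM in AIN_VdrKO, against 256, 270 and 257 CPM in NWD1 and 29.4, 54.7 and 77.6 CPM in AIN. Here the NWD1 libraries were the high ones (-3.45 ± 0.39, adjusted p = 1.25e-05). Slc7a2, a transporter of cationic amino acids, had 1.74, 0.217 and 1.09 CPM in AIN_VdrKO, against 9.02, 22.9 and 11.6 CPM in NWD1 (-3.93 ± 0.53, adjusted p = 7.06e-05). Wfdc10 had 5.94, 0 and 0.235 CPM in AIN_VdrKO, against 42.1, 44.5 and 16.5 CPM in NWD1 (-4.07 ± 1.09, adjusted p = 0.0133), and its call was lost in the fit of the 6 libraries alone.

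Of 18 stromal, endothelial, muscle and neural markers 7 were tested, and 1 was higher, the smooth muscle actin gene Acta2, at 1.05, 0.74 and 1.301 CPM in AIN_VdrKO and 0.089, 0.0175 and 0.12 CPM in NWD1 (3.54 ± 0.95, adjusted p = 0.0132, edgeR), a call that was lost without NWD1 2 (adjusted p = 0.073). The summed level of these 7 markers was 12.2, 12.4 and 13.0 CPM in AIN_VdrKO and 13.3, 7.24 and 24.95 CPM in NWD1. The fibroblast genes Col1a1 and Pdgfra had at most 2 counts in any library of both groups. Dcn, another fibroblast gene too low to test, had 4, 40 and 59 counts in AIN_VdrKO and 0 counts in each NWD1 library.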

How the data were processed

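RNA of sorted Lgr5-EGFP cells was made into cDNA with SMART-Seq v4 and into paired-end Nextera XT libraries, which keep no strand, per the labels' protocols. The authors deposited whole-number read counts per gene and spike-in; STAR 2.4.2a, HTSeq 0.6.1, edgeR and build mm9 are named per the submitters' processing notes. The deposited TPM table, scaled by gene length and library total by the authors, was used as an alternative. Genes with near-identical copies or overlaps are uncertain.

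Counts of all 21 libraries were fitted with edgeR 4.0.16 in R 4.3.3 (TMM, filterByExpr, quasi-likelihood, group and sex), with Benjamini-Hochberg adjustment over 16050 genes and a threshold of 0.05. Levels are CPM on TMM-scaled library sizes. The script was tested on simulated data. DESeq2 1.42.0 and limma 3.58.1 gave alternatives. Each group held 3 libraries. Nothing in the labels beyond separate mouse samples says how replicates were prepared, so p-values measure the spread between these libraries. Counting intervals cover counting error only.

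Members and gene lists were chosen with earlier results of these data known. Named genes were the 12 largest rises and falls past the threshold without overlap and with a mean log2 CPM of 2 or more, up to 3 members with the smallest p of each of 34 lists, and Vdr, Cyp24a1, Trpv6, S100g, Lgr5, Ppargc1a, Mt1 and Mt2. Other list members are named as called members or defining markers, chosen after their values were seen. Some named genes are not reported here.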

Additional observations from a re-analysis of the deposited data

How the results depend on the processing

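The direction of most named genes held, while the number of calls depended on the fit. Of 2118 values of named genes under the alternatives, 1752 kept direction and side of the threshold, 332 lost the call, 9 gained one and 25 changed sign, and the cause was not tested. Genes called, higher and lower numbered 1067, 663 and 404 with the 6 libraries alone, 668, 410 and 258 with the 9 libraries of AIN_VdrKO, NWD1 and AIN, and 594, 398 and 196 with male libraries, fits with fewer samples. DESeq2 called 1899 genes lower. On log2(TPM + 1) 751 were higher and 3643 lower, and on log2(TPM + 0.1) 754 and 3388. Without both NWD1 libraries rich in spike-ins, 2014 genes were called, 1019 of them higher. With a term for mitochondrial ribosomal RNA, chosen after seeing the data, 2275 were called, 1500 higher and 775 lower, and 1231 of the 3052 calls were kept. Leaving out 1 library gave 1869 to 3729 calls, 1093 to 2208 higher and 776 to 1521 lower. Deviations of same-numbered libraries from their group means correlated at r = 0.28, -0.065 and 0.16, and those of differently numbered libraries at -0.29 to 0.16. Whether same-numbered libraries share a preparation was not tested. The replicate block gave 1639 calls, 964 higher and 675 lower. Mt2 turned to -0.198 with 6 libraries, -0.07301 with 9, -0.09156 with males, -0.1693 without the sex term, -1.797 and -1.814 on TPM with pseudocounts of 1 and 0.1, -0.4785 with a length offset, -1.16 with the replicate block and -0.5935 with the mitochondrial term. Mt1 turned to -0.001458 with males, -0.7105 and -0.711 on TPM, -0.1561 with the length offset, -0.2507 with the replicate block and -0.3333 with the mitochondrial term. That term also gave -0.9901 for Fcer1g, -0.6759 for mt-Nd3, -0.7753 for mt-Nd6, -0.1179 for Rpl35, -0.2369 for Rpl17 and 0.04703 for Lgr5. With 1 library left out, Fcer1g ran from -0.1436 to 4.777, the Mt2 log2 fold change from -1.259 to 0.6876 and the Mt1 log2 fold change from -0.4876 to 0.6293.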
